A study of Mus musculus with 6 samples.

Results

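A set of 10 genes of the pancreas was followed in RNA labelled as spleen RNA: the islet hormone genes Ins1, Ins2, Gcg and Sst, and the acinar enzyme genes Cela1, Cpa1, Cpb1, Prss2, Pnlip and Ctrb1. They are 10 of the 20659 genes for which the arrays held a probe with a gene symbol. The 4 islet genes and 6 acinar genes were chosen by the organ that makes their products and selected on their processed signals and background calls per array and per group, with the higher Ins2 signal of the SA-H group already known. The differences of these 10 genes between the groups are therefore given as descriptions, with no test. Each gene had 1 probe, and the probes of Gcg and Sst were each printed in 10 spots.

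Single-colour Agilent mRNA microarrays were hybridized with Cy3-labelled spleen RNA of male ICR mice, an outbred strain, bought at 8 weeks of age. Both groups had received cyclophosphamide, an alkylating agent that is toxic to dividing lymphocytes, at 40 mg/kg by intraperitoneal injection for 5 days. The MOD group (arrays 1, 2 and 3) then received distilled water, and the SA-H group (arrays 4, 5 and 6) received schisandrol A (SA), a lignan of Schisandra chinensis, by gavage. The labels give its dose as 1000 mg/kg per day. The sample titles call the groups Model and Medicine, and the names MOD and SA-H are those of the published study. For its SA-H mice that study states a different dose and a shorter gavage. The protocol gives 4 weeks of gavage to both groups, whereas the labels give day 5 for MOD and day 28 for SA-H. If the labels are right, group and sampling day cannot be told apart. Mice without cyclophosphamide were not analysed here, and nothing states that the arrays of a group came from separate mice, so that the spread behind the p-values is that between samples and may be of technical origin.

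In the mouse the tail of the pancreas lies against the spleen along the splenic vessels, and the fat around both is shared. Acinar cells make up most of the pancreas and secrete digestive enzymes, many of them as inactive precursors, such as the trypsinogen Prss2, the chymotrypsinogen Ctrb1, the carboxypeptidases Cpa1 and Cpb1, together with the lipase Pnlip. Islets hold beta cells (insulin, Ins1 and Ins2), alpha cells (glucagon, Gcg) and delta cells (somatostatin, Sst). The mouse has 2 insulin genes, and beta cells use both. Cela1, a pancreatic elastase, is counted with the acinar enzymes but is transcribed in other tissues too. Several of these genes belong to families of close copies (trypsinogens with Prss2, for example), and the probe sequences were not analysed here, so that a signal cannot be assigned to 1 copy with certainty.

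The stretches of DNA just before the start sites of 4 acinar genes are shown because these genes are switched on together in acinar cells. On the spleen arrays, all 4 were well above background on SA-H array 5 only. The sequences are from RefSeq on build GRCm38.p6, where 9 of the 10 genes had a promoter entry, and each covers the 100 bases before the start, 5′ to 3′ on the strand of the gene. Capitals mark TATAAA, the letters of a TATA box, and CAGCTG, an E-box. Both strands were searched, CAGCTG reads the same on both, and no match of one motif overlapped the other.
Cela1, chr15:100687921-100688020, strand minus: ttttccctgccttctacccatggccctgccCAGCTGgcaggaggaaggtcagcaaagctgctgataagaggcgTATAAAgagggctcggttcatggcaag
Pnlip, chr19:58670265-58670364, strand plus: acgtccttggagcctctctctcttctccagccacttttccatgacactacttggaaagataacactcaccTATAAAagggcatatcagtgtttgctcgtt
Prss2, chr6:41521676-41521775, strand plus: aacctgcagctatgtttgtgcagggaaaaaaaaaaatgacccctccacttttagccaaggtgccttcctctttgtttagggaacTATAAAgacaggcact
Ctrb1, chr8:111691011-111691110, strand minus: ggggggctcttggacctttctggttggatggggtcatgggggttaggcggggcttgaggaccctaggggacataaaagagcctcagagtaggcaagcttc
TATAAA was present in 3 of the 6 acinar promoters (Cela1, Pnlip and Prss2), against 5.56% of 32851 promoters cut to the same window. CAGCTG was present in 1 of them, that of Cela1, against 5.81% of all. These matches describe the letters of the windows and not binding.

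The arrays differed in the share of spots read above background, which bears on every dim pancreas gene. The scanner software calls a spot well above background when its signal clearly exceeds the local background. That was the case for 72.2% of spots on MOD array 2 and 73.9% on SA-H array 5, and for 43.1% to 49.4% on the other 4 arrays. The 75th percentile of the processed signal, used here to put the arrays on a common scale, ranged from 220 on SA-H array 4 to 868 on SA-H array 5. There were 3 scan days: the first held MOD arrays 1 and 3 with SA-H array 6, the second held MOD array 2 with SA-H array 4, and SA-H array 5 had the last one to itself. The log2 value table that the authors deposited did not match the scanner files column by column. Over 13892 probes, 1 of 6 scanner arrays correlated best with the column of its own sample, and the SA-H minus MOD differences of both sources correlated at r = 0.33. Scanner values are given below, with the table's values beside those results on which they differ.

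Of the 10 pancreas genes, 9 were well above background on at least 1 array, a share of 90.0% against 82.3% of all named genes. Gcg, the glucagon gene, was the one that was not. On MOD arrays 1, 2 and 3, 2, 7 and 2 of the 10 genes were well above background, and on SA-H arrays 4, 5 and 6 the numbers were 3, 9 and 2. Among all named genes the shares were 51.8%, 77.6% and 58.1% for MOD, and 53.1%, 78.6% and 54.4% for SA-H. The counts of pancreas genes were highest on arrays 2 and 5, which were also the arrays with the highest shares of all genes. Without SA-H array 5 the count over the other arrays was 7 in place of 9. Ins2 and Cela1 were well above background on all 6 arrays, a share of 20.0% of the pancreas genes, compared with 45.3% of all named genes.

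**Figure D1:**
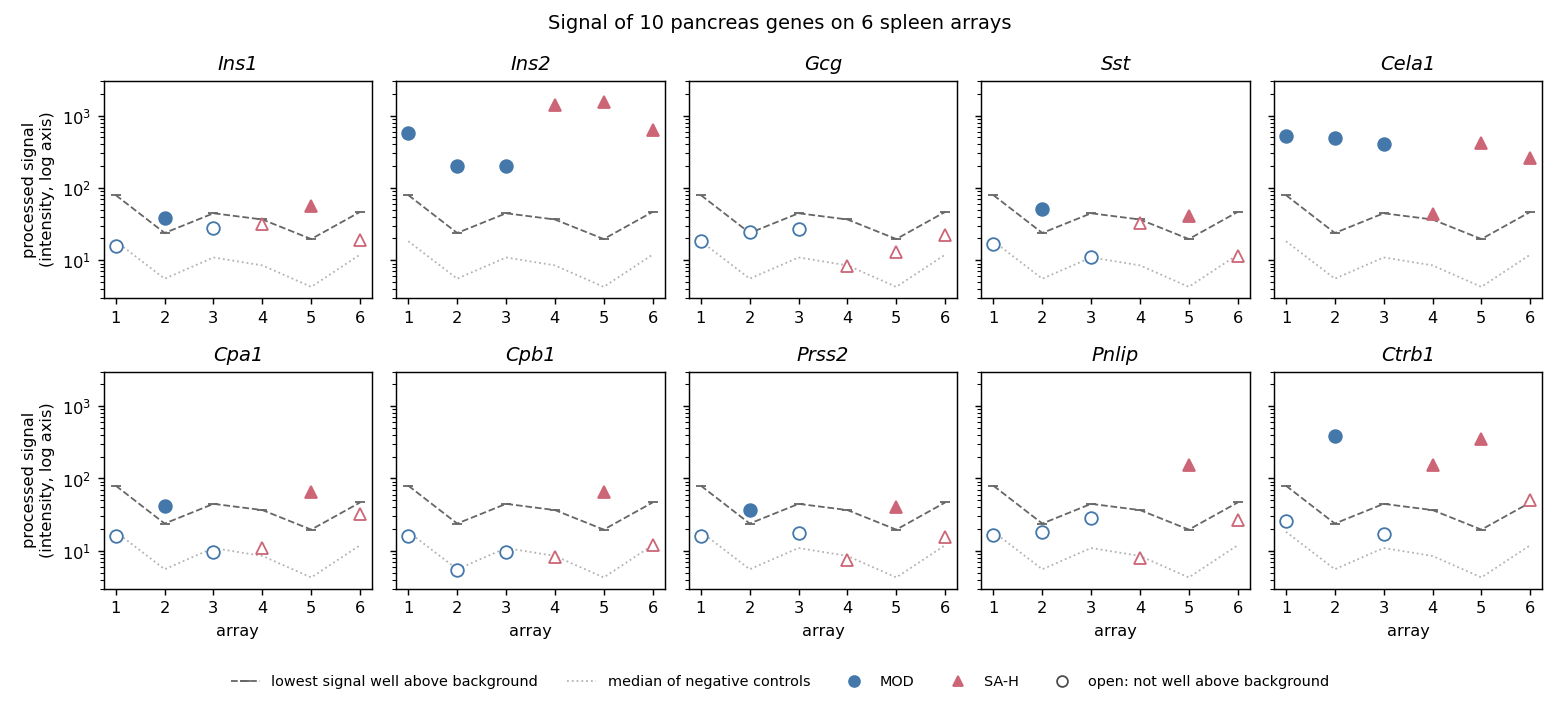
Processed signal (intensity, log axis) of the 10 pancreas genes on each of the 6 arrays, with MOD as circles, SA-H as triangles, filled symbols where the probe was well above background, the dashed line at the lowest signal called well above background on that array and the dotted line at the median of its negative control spots. Ins2 and Cela1 carry filled symbols on all 6 arrays, Ctrb1 on arrays 2, 4 and 5, and Gcg on no array.

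Among the islet hormones, Ins2 gave a signal on every array and was higher in the SA-H group. Its processed signal was 583, 200 and 204 on MOD arrays 1, 2 and 3. It was 1418, 1531 and 623 on SA-H arrays 4, 5 and 6. The lowest SA-H signal, on array 6, was close to the highest MOD signal, on array 1. As log2 level, with the array's own 75th percentile as 0, Ins2 was -0.10, -2.07 and -1.56 in MOD, and 2.69, 0.82 and 0.53 in SA-H. In order, array 4 was highest, then 5, 6, 1, 3 and 2, and the groups did not overlap. SA-H array 6 (0.53) and MOD array 1 (-0.10) were closer to each other than the SD within either group. The group means were -1.24 ± 1.02 (SD, n = 3) for MOD and 1.34 ± 1.17 (SD, n = 3) for SA-H, a difference of 2.59 on the log2 scale or 6.01-fold. No negative control spot of the 153 on any array reached the Ins2 signal of that array.

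The size of the Ins2 difference depended on which arrays were set against each other. Within the first scan day it was 1.35 (1 SA-H array against 2 MOD arrays), and within the second it was 4.76 (1 against 1). Leaving out 1 array at a time gave 1.91 (without SA-H array 4) to 3.16 (without MOD array 1). The authors' value table did not show the difference: its log2 values of Ins2 were 7.46, 7.63 and 7.93 for MOD and 7.53, 7.75 and 7.60 for SA-H, a difference of -0.05. The groups overlap there, and all 6 values lie close together, from 7.46 to 7.93.

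Ins1, the other insulin gene, did not show a signal of that kind. Its processed signal was 15.9, 37.8 and 27.9 in MOD and 31.5, 55.9 and 19.0 in SA-H. It was well above background on arrays 2 and 5, 1 array of each group. The log2 level was -4.73 ± 0.49 (SD, n = 3) in MOD and -3.76 ± 0.87 (SD, n = 3) in SA-H, with overlapping groups. Its highest level, -2.80, was on SA-H array 4, where Ins2 was also highest. The signal there was not well above background, although 0 of the 153 negative control spots reached it. The deposited values of Ins1 ran from 2.88 to 4.44.

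Gcg and Sst, the hormones of the alpha and delta cell, were near the background. The mean Gcg signal over its spots was 18.7, 24.4 and 27.1 in MOD and 8.45, 13.2 and 22.7 in SA-H, and it was well above background on none. Of the 153 negative control spots, 71, 7 and 0 were as bright as Gcg or brighter in MOD, and 78, 2 and 0 in SA-H. Sst was well above background on MOD array 2 and SA-H array 5, with mean signals of 51.0 and 40.8. On array 2 its 10 spots ranged from 7.49 to 83.3, and 7 of them were called well above background. On array 5 they ranged from 21.2 to 56.8, and 10 of 10 were. Repeat spots of 1 probe on 1 array thus differed by more than the means of arrays 2 and 5 did. On SA-H array 4, 4 of the 10 Sst spots passed.

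Of the acinar enzymes, the elastase gene Cela1 was read on every array, and it was not higher in the SA-H group. Its signal was 528, 491 and 401 in MOD, and 43.3, 419 and 261 in SA-H. The log2 level was -0.25, -0.77 and -0.58 in MOD and -2.34, -1.05 and -0.73 in SA-H. Array 4 was the lowest by a wide margin, and SA-H array 6 lay within the range of the MOD arrays. The group means were -0.53 ± 0.27 (SD, n = 3) and -1.37 ± 0.86 (SD, n = 3), a difference of -0.84 that became -0.36 when array 4 was left out. Cela1 thus had its lowest level on the array with the highest Ins2 level.

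Ctrb1, the chymotrypsinogen gene, was read on arrays of both groups. Its signal was 25.9, 386 and 17.1 on the MOD arrays. It was 155, 351 and 50.2 on the SA-H arrays. It was well above background on arrays 2, 4 and 5, which are the arrays of the later scan days, and on none of the first. The log2 level was -4.59, -1.12 and -5.13 in MOD and -0.50, -1.30 and -3.11 in SA-H, so that MOD array 2 lay between SA-H arrays 4 and 5. The difference of 1.98 rested on a group of which 1 of 3 arrays measured the gene and a group of which 2 of 3 did. It was 1.75 within the first scan day and 0.62 within the second, and a fit that blocks the day gave 1.27. In the deposited values Ctrb1 was flat, from 4.85 to 5.49.

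The other 4 acinar genes were read on arrays 2 or 5, the arrays with most spots above background. Pnlip, pancreatic lipase, had a signal of 151 on SA-H array 5, where it was well above background, and of 7.87 to 28.4 on the other 5 arrays. In the deposited table its highest value was instead 9.89, in the column of SA-H array 6, against 3.59 to 4.90 in the other columns. Cpb1, a carboxypeptidase, was likewise well above background on SA-H array 5 (signal 64.8), and it lay between 5.52 and 16.3 elsewhere. Cpa1, a carboxypeptidase too, reached 42.1 on MOD array 2 and 64.6 on SA-H array 5. The trypsinogen Prss2 reached 36.2 and 40.2 on those arrays. On the other 4 arrays neither Cpa1 nor Prss2 was well above background.

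Of the 10 genes, 3 (Ins2, Cpa1 and Cpb1) had levels on all 3 SA-H arrays above all 3 MOD arrays, and 0 had the reverse. Over all 38929 probes with a value on every array, 8.44% had SA-H above MOD without overlap. The share with the reverse is not given here, and nothing is read from the count of 0. Cpa1 was well above background on 1 array of each group and Cpb1 on 1 SA-H array, so that on the other arrays their levels are those of signals near the background. The median difference of the 10 genes was 1.11 on the log2 scale, and it was 0.47 and 0.66 within the first and the second scan day. Ins2 and Cela1 were bright enough to enter the comparison across all genes, which asked for a probe well above background on each of the 3 arrays of at least 1 group. There, 1 of the 2 (Ins2) passed a fold change of 2 and an unadjusted p of 0.05 in limma, limits that 12.8% of the 14474 genes and unnamed targets tested passed (7.74% higher and 5.03% lower in SA-H). Since the Ins2 difference led to the list, nothing is read from that count. In size, 116 tested genes had a larger rise than Ins2. The smallest adjusted p in limma was 0.0712, so that 0 genes had one under 0.05, and 3377 had an unadjusted p under 0.05. The count of 0 depended on the setting: 1075 passed the adjusted p with the scan day as a block, 1094 with scaling by the median, 211 with normexp and 1779 in the value table.

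The other genes of the pancreas, which the rule for the 10 did not use, were mostly dim as well. Of 101 listed genes (acinar, islet, duct, transcription factor and hormone receptor genes), 96 had a probe. Of the 26 acinar genes with a probe, 3, 15 and 7 were well above background in MOD (arrays 1, 2 and 3) and 9, 20 and 6 in SA-H (arrays 4, 5 and 6). Of the 24 islet hormone and secretory granule genes these counts were 4, 15 and 5 in MOD and 10, 16 and 7 in SA-H. Of the acinar genes, 5 (Cela2a, Pnliprp1, Pnliprp2, Cuzd1 and Serpini2) were well above background on 0 arrays. So were 7 islet genes, among them the zinc transporter Slc30a8, the glucose transporter Slc2a2 and the convertase Pcsk1, and 7 islet transcription factors, among them Pdx1 and Isl1. The markers of spleen lymphocytes behaved differently. Of 10 T cell markers, 10 were well above background on all 6 arrays, and of 10 B cell markers, 9 or 10 were on each array. Of 10 red pulp macrophage markers, 8 were on all 6 arrays, and so were 9 of 9 erythroid markers.

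**Figure D2:**
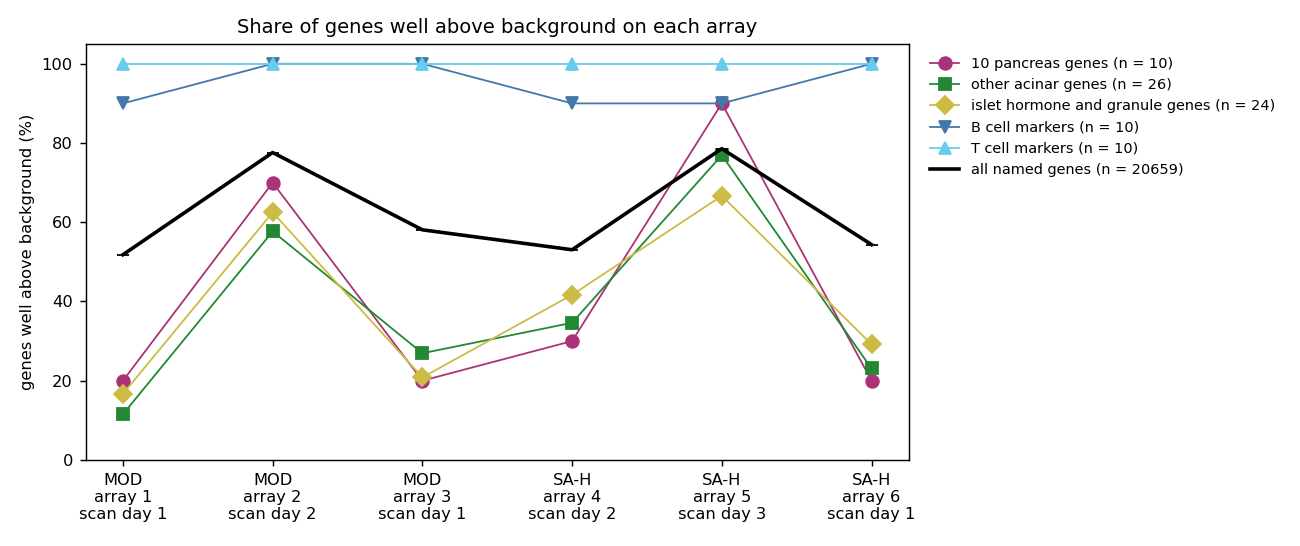
Share of genes well above background (percent) on each array for the 10 pancreas genes, 2 further lists of pancreas genes, B and T cell markers and all named genes; the x axis names group, array and scan day. The pancreas genes range from 20.0% to 90.0% and peak on arrays 2 and 5, where all named genes also peak at 77.6% and 78.6%, whereas the lymphocyte markers stay at 90.0% or above.

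Of the 96 other pancreas genes, 26 were bright enough to be tested between the groups. Since 2 of these had no unflagged value on SA-H array 5, 24 were tested, and 5 were called changed at a fold change of 2 and an unadjusted p of 0.05, all 5 of them higher in SA-H (20.8%, against 12.8% of all tested genes). Of these 5, 3 (Klk1, Pcsk2 and Rbpjl) passed the filter on dim probes through the SA-H arrays alone, the group in which they were high. Among genes well above background on all 6 arrays, 2 of 15 were called (13.3%, against 10.2% of all such genes), and the count of 5 is therefore not read as a shift of the list. The median difference of the 24 was 0.26, against -0.04 over all tested genes. Scaling by the median turned it to -0.06, with the median of all genes at -0.36. In the authors' value table it was -0.17, with 2 of the 24 called higher and 3 lower. In limma 0 of the 24 had an adjusted p under 0.05, and 5 had an unadjusted p under 0.05; with the scan day as a block 4 passed the adjusted p. The count was 2 without MOD array 1, without MOD array 3 or without SA-H array 4, and 8 with array 6 left out, so that single arrays decide it. By list, called genes numbered 1 of 5 acinar enzymes, 2 of 7 islet hormone and granule genes, 1 of 3 islet transcription factors and 1 of 3 acinar transcription factors. They numbered 0 of 6 hormone receptor and insulin signalling genes, and of the 10 duct genes 1 was bright enough but had no value on SA-H array 5, so that 0 were tested. Receptors with a level on both groups included Insr, the insulin receptor, at -0.90 ± 0.13 in MOD and -1.40 ± 0.93 in SA-H (SD, n = 3), and the somatostatin receptor gene Sstr5 at 0.50 ± 0.46 and 0.88 ± 0.67 (SD, n = 3). Neither passed the limits.

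Pcsk1n and Pcsk2 were the islet granule genes past these limits. Pcsk2, a convertase that cuts prohormones, had a level of -4.70, -1.39 and -4.57 in MOD and 1.13, -0.48 and -2.31 in SA-H, with means of -3.55 ± 1.87 and -0.55 ± 1.72 (SD, n = 3; standard error of the difference 1.11, adjusted p = 0.177 from limma). MOD array 2 lay above SA-H array 6, so that the groups overlap, and the call was lost without array 1, 3, 4 or 5 (2.43, 2.49, 2.16 and 2.96). A second, dimmer Pcsk2 probe was well above background on 0 arrays and did not show the rise (difference -0.49). Pcsk1n, whose product inhibits a convertase, was at 0.01, 0.42 and -0.43 in MOD and 2.87, 0.88 and 1.83 in SA-H, a difference of 1.86 with no overlap (standard error 0.51, adjusted p = 0.111 from limma), and it kept its call without each array in turn. In the deposited value table the difference of Pcsk2 was -0.03 and that of Pcsk1n was -0.22. A further granule gene, that of the sorting receptor and carboxypeptidase Cpe, was at -0.77 ± 0.31 in MOD and -0.84 ± 0.81 in SA-H (SD, n = 3).

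Mafa, an activator of insulin gene transcription in beta cells, was well above background on all 6 arrays. Its level was -0.03, 0.94 and 0.04 in MOD and 2.57, 1.31 and 1.14 in SA-H, a difference of 1.35 (standard error 0.46, adjusted p = 0.154 from limma). The SA-H arrays lay above the MOD arrays, and array 4 was again the highest. The call was lost without array 1, 3 or 4 (1.18, 1.22 and 0.90). In the value table the difference was -0.38. Neurog3, which starts the endocrine lineage in the embryo, had signals of 2178, 19292 and 2072 in MOD and 17503, 15992 and 2958 in SA-H. They were high on arrays 2, 4 and 5 in either group, as those of Ctrb1 were, and the SA-H minus MOD difference of 1.73 did not pass the limits (adjusted p = 0.342 from limma).

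Klk1, tissue kallikrein, and Rbpjl, a subunit of the acinar transcription factor complex, were the acinar genes past the limits. Klk1 was at -2.99, -1.75 and -2.04 in MOD and -1.34, -0.53 and -0.74 in SA-H, a difference of 1.39 (standard error 0.39, adjusted p = 0.115 from limma). The groups did not overlap, the call was kept without each array in turn, and the difference was 1.26 in the value table. Within the first scan day the Klk1 difference was 1.77, and within the second it was 0.40. Rbpjl was at -4.74, -3.11 and -3.83 in MOD and -1.75, -2.69 and -3.05 in SA-H, a difference of 1.40 (standard error 0.50, adjusted p = 0.166 from limma). Rbpjl was well above background on 4 arrays, its call was lost without array 1, 3 or 4 (0.97, 1.43 and 1.02), and its difference in the value table was 1.85. Its partner Ptf1a was well above background on arrays 2, 3 and 5 and was too dim to be tested. Bhlha15, a factor of secretory cells that plasma cells use too, was at -0.89 ± 0.42 in MOD and -1.79 ± 0.80 in SA-H (SD, n = 3). Its SA-H levels all lay below its MOD levels, but the difference did not pass the limits. On SA-H array 4 Bhlha15 was not well above background. Erp27 and Pdia2, chaperones of the acinar endoplasmic reticulum, were well above background on all 6 arrays and did not pass the limits, with differences of 0.87 and -0.43.

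**Figure D3:**
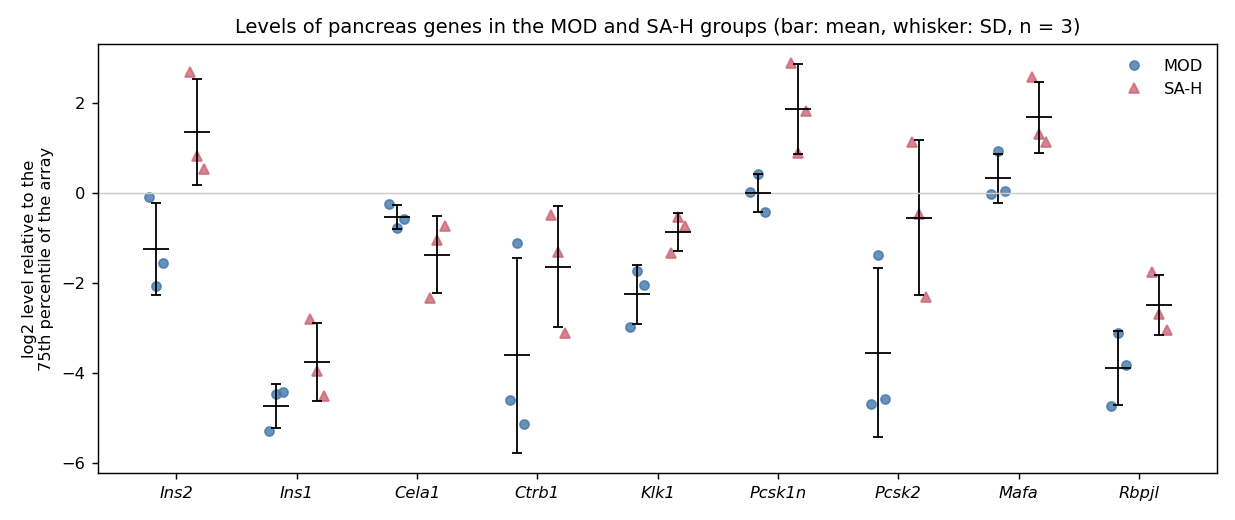
Log2 level relative to the 75th percentile of the array for 4 of the 10 pancreas genes (Ins2, Ins1, Cela1 and Ctrb1) and for the 5 other pancreas genes past the fold change and p limits; points are arrays, bars are means and whiskers are SD (n = 3). Ins2 moves from -1.24 in MOD to 1.34 in SA-H, Cela1 from -0.53 to -1.37, and the points of Ctrb1 and Pcsk2 overlap between the groups.

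The split by scan day, examined after the values had been seen, took in more pancreas genes than Ctrb1. Levels on arrays 2, 4 and 5 (later days) were all above those on arrays 1, 3 and 6 (first day) for 2 of the 10 genes (Ctrb1 and Sst) and for 23 of 94 other pancreas genes with a value on every array (24.5%), against 13.0% of 20575 named genes. The reverse held for 1 of the 10 (Cela1), for 4 of the 94 (4.26%) and for 6.73% of the named genes. Among the 23 were the lipase cofactor Clps, with a level of -3.52, -0.78 and -3.76 in MOD and -1.13, -2.16 and -3.20 in SA-H, and the granule gene Sycn, at -3.03, -0.34 and -4.34 in MOD and -0.90, -1.04 and -3.28 in SA-H. Gata4, a transcription factor of the acinar list, and Pcsk2 were among them as well. Stomach markers moved the same way for 6 of 9 genes, and fat markers for 0 of 10. Ins2 was not among these genes: its level on array 2 was the lowest of all 6. The part of the scan day in these values was not tested.

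Markers of other tissues around the spleen are given beside these values, to be read against the 12.8% of all tested genes called (7.74% higher in SA-H and 5.03% lower). Of 10 fat markers, 2 were well above background on 0 arrays and 6 were tested, and 4 were called lower in SA-H and 0 higher, with a median difference of -2.42. All 4 entered the comparison through the MOD arrays alone, the group in which they were high, and on SA-H array 4 none of them was well above background. Of the 2 fat markers well above background on all 6 arrays, 0 were called. The summed linear level of the 6 ran from 9.45 to 13.8 on the MOD arrays and from 5.02 to 5.97 on the SA-H arrays, and the brightest were Fabp4, Cfd and Retn. The extraction protocol in the labels also speaks of liver; of 12 liver markers 4 were well above background on all 6 arrays, 5 were tested, and 1 was called, higher in SA-H (median 0.55). Of the stomach markers 1 of 2 was called, higher in SA-H, and of the mesothelium markers 1 of 2, lower. Among the spleen lists, 2 of 9 B cell markers were called, both higher, 0 of 10 T cell markers, 1 of 9 red pulp macrophage markers (lower) and 2 of 9 erythroid markers (both lower). The called macrophage and mesothelium markers passed the filter on dim probes through the MOD arrays alone, the group in which they were high. Of the 2 called B cell markers, 1 passed it through the SA-H arrays alone. In bulk tissue fewer cells of a type and less RNA per cell cannot be told apart, and the part of these tissues in the Ins2 difference was not tested.

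**Figure D4:**
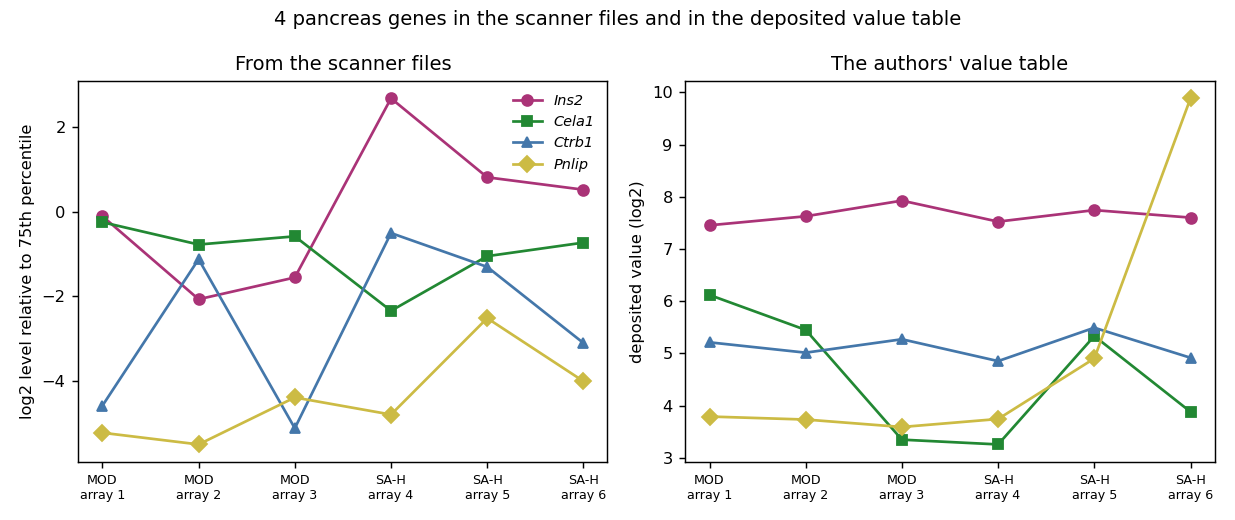
Ins2, Cela1, Ctrb1 and Pnlip on the 6 arrays, as the log2 level from the scanner files (left) and as the authors' deposited log2 value (right); lines join the arrays of 1 gene only to guide the eye. In the scanner files Ins2 is highest on SA-H array 4 at 2.69, whereas its deposited values stay between 7.46 and 7.93, and the deposited Pnlip value of SA-H array 6 stands at 9.89.

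The named genes whose levels followed Ins2 most closely over the 6 arrays were Tsga8, Rp9, Unc13d, F7, Spic, Slc6a8, Adam8 and Usp28, with Pearson correlations of 0.98 to 0.99. They are the 8 highest among named genes well above background on all 6 arrays, with RIKEN, Gm, LOC and accession-like symbols passed over. Of all 12138 genes and targets well above background on all 6 arrays, 247 (2.03%) had a correlation over 0.9. The 8 genes share the arrays, groups and scan days. None is on the lists of pancreas genes. Spic, the transcription factor of red pulp macrophages, was at 2.57, 2.26 and 2.31 in MOD and 3.62, 3.07 and 3.03 in SA-H. The 9 tested red pulp macrophage markers, Spic among them, had a median difference of -0.56. F7, the gene of coagulation factor VII, differed by 1.93 between the groups. Of the pancreas genes tested, the highest correlations with Ins2 were those of Pcsk1n (0.84) and Mafa (0.76), which were 0.62 and 0.40 over the 5 arrays other than SA-H array 4, and the other insulin gene was too dim to enter.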

How the data were processed

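RNA of 6 samples labelled as mouse spleen, 3 MOD and 3 SA-H, was read on single-colour Agilent arrays. Groups (Model and Medicine, here MOD and SA-H) and replicate numbers were taken from the sample titles. Per the file headers and the submitters' processing notes, the authors made the intensity values of the scanner files in Agilent Feature Extraction 11.0.1.1, which subtracts the background; they are linear, with no scaling from array to array. The deposited table of log2 values has 6 columns that share a median of 5.34, and how it was made is not given in the sources used here. Its log base was read from its range, and its columns were taken as the authors' values, since they did not match the scanner arrays.

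Spots flagged as outliers were left out, log2 processed signals were set relative to the 75th percentile of the 43020 spots that are not controls, and repeat spots were averaged. A total of 27234 of 39429 probes (69.1%) had a gene symbol through their RefSeq accession. A probe entered the comparison of groups if each of the 3 arrays of MOD or of SA-H had it well above background and it had an unflagged value on all 6, and the brightest such probe stood for its gene (14474 genes and unnamed targets). The comparison used limma 3.58.1 (R 4.3.3) and Benjamini-Hochberg adjustment over all tested; a gene was called if its fold change reached 2 and its unadjusted p was under 0.05. The method was tested on simulated data. Other steps used Python 3.11.15 with pandas 2.3.3, numpy 2.4.6 and matplotlib 3.10.9.

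The 10 genes, the lists and the tests were chosen with earlier results of these data known. Of each list of other pancreas genes, the text names every called gene and up to 4 more with the highest mean level. Of marker lists it names the 3 brightest. As most like Ins2 it names the 8 named genes of highest Pearson correlation, with RIKEN, Gm, LOC and accession-like symbols passed over. A gene that this rule takes is not reported here. Other genes named as not well above background or as split by scan day were chosen after their values were seen. Alternatives were scaling by the median, quantile normalization and normexp background correction (offset 50). Normexp used the median spot signal, since the files analysed here have no mean signal. Further alternatives were the value table, other filters on dim probes, probe averaging and outlier spots kept. Others were scan day and slide as blocks, an ANOVA, and leaving out each array. Arrays with the same scan time in the file headers were taken as the same slide. The published study names an ANOVA for its data but no test for the arrays. With 3 arrays a group, precision is limited by their number.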

Additional observations from a re-analysis of the deposited data

How the results depend on the processing

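The Ins2 difference of 2.59 stayed above 0 in the scanner values, from 2.21 with normexp to 2.81 with the scan day as a block, 1.35 and 4.76 within the first and second scan day, and 1.91 to 3.16 when 1 array was left out. It was -0.046 in the authors' value table, where Pcsk1n (-0.22), Pcsk2 (-0.029) and Mafa (-0.38) were also turned; the cause was not tested. The median of the 10 genes (1.11) ran from 0.47 within the first scan day to 1.37 without SA-H array 6. Of 135 differences of the other 9 genes under alternatives, 126 moved by less than the spread between replicates and 9 by more. For genes near the background that spread is wide, so this count does not show that their differences are stable. The Gcg difference, for example, went from -0.11 to 0.48 with the scan day as a block and was counted as within the spread. The count of genes above background on any array (9) was 10 when a signal had only to be positive and significant, and 7 to 9 without 1 array.

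All tested genes called (1849) numbered 3158 with scaling by the median, 1135 with the ANOVA and 1306 in the value table. Without 1 array they numbered 1228 to 2466, with the lowest count without SA-H array 4. The share of called genes that were higher in SA-H was 60.6%, and it was 31.6% with scaling by the median, which moved the median difference of all genes to -0.36, and 23.3% in the value table. The other pancreas genes called (5 of 24) numbered 8 with scaling by the median, 11 of 94 with no filter on dim probes, 2 of 15 with a filter on all 6 arrays, 2 with the ANOVA and 2 to 8 without 1 array. Of these genes, 2 were called higher and 3 lower in the value table. Blocking by scan day, where SA-H array 5 carries no weight on the groups, 1075 of all tested genes passed an adjusted p of 0.05. With the slide, inferred from shared scan times, as a random block, 0 passed. No paired analysis was possible because the replicate numbers of the groups in the titles (1 to 3 and 4 to 6) do not coincide.

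The arrays differ in how many probes they raise above background, and 8 of the 10 genes lie near that limit on most arrays. On arrays where a gene was not well above background its value bounds the level rather than measures it, which touches the differences given for Ctrb1 and the median over the 10 genes.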
